A study of Mus musculus with 6 samples.

Results

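Genes for the processing and crosslinking of collagen were followed in dorsal skin of tight skin (TSK) and wild-type (WT) mice. The set held 36 genes of the 55291 in the deposited tables. It was listed by gene name and takes in the prolyl and lysyl hydroxylases, the collagen chaperones, factors for export from the endoplasmic reticulum, the propeptide proteinases with their enhancers, and the crosslinking enzymes. RNA was sequenced from shaved whole dorsal skin of 3 TSK mice and 3 WT littermates, with 1 library per mouse and no treatment. The TSK mutation is a germline duplication within Fbn1, which encodes the microfibril protein fibrillin 1, so it is present in every cell type, and living carriers are heterozygous. Both groups were of the C57BL/6 strain, with an age of 6 to 8 weeks in the labels, and the mutation was kept by backcrossing. Sex is female in the labels but male in the study's methods, and the Y-linked gene Ddx3y was read at 56.7 to 72.8 CPM in all 6 libraries, against 2.57 to 4.58 CPM of Xist. CPM are counts per library total, scaled so that every library sums to the same value.

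Fibrillar collagen chains are hydroxylated, glycosylated and folded in the endoplasmic reticulum, carried out in coated vesicles large enough for the stiff procollagen, trimmed of their propeptides outside the cell and then joined by covalent bonds. Hydroxylation of proline makes the helix stable at body temperature, while hydroxylation of lysine sets which crosslinks can form. In skin, dermal fibroblasts make most of this collagen, and lysyl oxidases crosslink elastin as well as collagen.

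All 36 genes passed the filter on low counts. The whole-table test was edgeR's quasi-likelihood test with TMM scaling, a correction for the makeup of the libraries, and p-values adjusted by the Benjamini-Hochberg method over 19971 genes. At an adjusted p below 0.05, 4 genes of the set were higher in TSK skin (Pcolce2, Loxl1, Bmp1 and Crtap), which is 11.1% of them, where 2.71% of all genes tested were called higher. A single gene of the set, Tgm2, was lower (2.78% of them), where 0.681% of all genes tested were called lower. P-values weigh the difference between the groups against the spread among mice of the same group. In bulk skin, fewer cells of a type and less RNA per cell cannot be told apart.

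In mm10 the called genes lie at chr9:95637601-95698096 (Pcolce2, plus strand), chr9:58287738-58313186 (Loxl1, minus), chr14:70474558-70520234 (Bmp1, minus), chr9:114375134-114390675 (Crtap, minus) and chr2:158116402-158146436 (Tgm2, minus). Promoter sequences are shown for Crtap and Pcolce2, the called genes held in the collection of RefSeq promoters used here. They are also shown for Serpinh1 and P4hb, which had the highest levels per length in TSK skin. Each is the 250 bases before the RefSeq transcription start (GRCm38.p6), 5′ to 3′ in the direction of the gene. Capitals mark matches, on either strand, to the TATA box TATAAA, the promoter element known by its letters CCAAT, the GC box motif GGGCGG or the closing part of the ER stress response element, CCACG.
Crtap (chr9:114390713-114390962, minus strand): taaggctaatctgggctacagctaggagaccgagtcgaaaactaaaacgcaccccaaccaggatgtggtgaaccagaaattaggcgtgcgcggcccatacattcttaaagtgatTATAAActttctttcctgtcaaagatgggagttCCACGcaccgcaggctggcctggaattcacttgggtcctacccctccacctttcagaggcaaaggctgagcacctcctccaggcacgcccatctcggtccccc
Pcolce2 (chr9:95637378-95637627, plus strand): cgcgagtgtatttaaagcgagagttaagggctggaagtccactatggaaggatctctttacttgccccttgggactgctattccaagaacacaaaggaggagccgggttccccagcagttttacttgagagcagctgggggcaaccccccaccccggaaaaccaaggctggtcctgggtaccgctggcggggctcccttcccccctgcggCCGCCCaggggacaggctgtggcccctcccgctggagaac
Serpinh1 (chr7:99353240-99353489, minus strand): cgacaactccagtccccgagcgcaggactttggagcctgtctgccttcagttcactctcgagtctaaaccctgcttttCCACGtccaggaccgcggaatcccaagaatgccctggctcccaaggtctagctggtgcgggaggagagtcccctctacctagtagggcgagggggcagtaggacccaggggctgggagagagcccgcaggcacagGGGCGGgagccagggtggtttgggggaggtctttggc
P4hb (chr11:120573254-120573503, minus strand): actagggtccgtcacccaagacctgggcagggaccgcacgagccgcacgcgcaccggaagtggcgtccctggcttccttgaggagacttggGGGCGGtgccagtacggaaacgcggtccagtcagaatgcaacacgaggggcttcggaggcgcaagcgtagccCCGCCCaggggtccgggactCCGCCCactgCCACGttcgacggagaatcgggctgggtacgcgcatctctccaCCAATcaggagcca
The sequence of Crtap held a TATAAA starting 136 bases before its start and a CCACG 103 bases before it. Pcolce2 held only a GGGCGG on the opposite strand, and GENCODE places the start of Pcolce2 at position 95637601, inside the window. Serpinh1 held a GC box and a CCACG but no CCAAT. P4hb held 3 GC boxes, a CCACG 57 bases before its start and a CCAAT 14 bases before it. The whole ER stress response element was not searched for.

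The collection of RefSeq promoters used here held 24 of the 36 genes, with 27 promoters in all. Missing from this collection were Lox, Loxl1, Loxl2, Loxl3, Bmp1, Tgm2, Fkbp10, P3h2, P3h4, Plod2, Creb3l1 and Colgalt2. This does not show that RefSeq itself lacks them. GGGCGG was present in 20 of the 27 promoters (74.1%) against 32.7% of all promoters in the collection, taken at this length. CCACG was present in 14 of the 27 (51.9%) against 28.3%, CCAAT in 10 (37.0%) against 33.8%, and TATAAA in 2 (7.4%, Crtap and Plod1) against 12.4%. The longer motif TGACGTGG, which contains CCACG on the other strand and is bound by factors of the ATF6 and CREB3 families, was present before Sec24d and Adamts3, the only such entries of the set (7.4%), against 0.6% of all promoters. The median GC content was 63.6% for these genes and 52.4% for all promoters. Such matches are descriptions of sequence and not of binding.

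Across the set, the median log2 fold change (TSK minus WT) was 0.53, and 27 of the 36 genes were above 0. Over all genes tested the median was -0.03, and 47.0% were above 0. By role, the median was highest for the propeptide proteinases and their enhancers (1.04), followed by the chaperones (0.81), the crosslinking enzymes (0.48), the prolyl 3-hydroxylase complex (0.45), export (0.28), lysyl hydroxylases and glycosyltransferases (0.19) and prolyl 4-hydroxylases (0.07). This order rests in part on TSK 3: without that mouse the medians were 0.67, 0.56, 0.15, 0.39, 0.03, 0.14 and 0.01 in the same order of roles, which puts the crosslinking enzymes below the prolyl 3-hydroxylase complex and export below the lysyl hydroxylases. The crosslinking enzymes were also below the prolyl 3-hydroxylase complex without WT 1 (0.40 and 0.41) or WT 2 (0.38 and 0.46), with limma-voom (0.45 and 0.47), limma-trend on log2 of CPM plus 0.1 (0.73 and 0.74) and the replicate block (0.45 and 0.46). With limma-trend on log2 of CPM plus 1 the chaperones (1.01) came before the proteinases (0.96). At an unadjusted p below 0.05, 16 genes of the set were higher, where 12.1% of all genes were, and 3 were lower (Tgm2, Sec23a and Adamts14), where 7.9% were. In TMM-scaled CPM, 15 genes of the set were higher in every TSK library than in any WT library, against 14.1% of all genes, and 2 were lower (Tgm2 and Adamts14), against 10.6%. In CPM as deposited, without TMM, 25 were higher in every TSK library, against 29.1% of all genes.

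**Figure D1:**
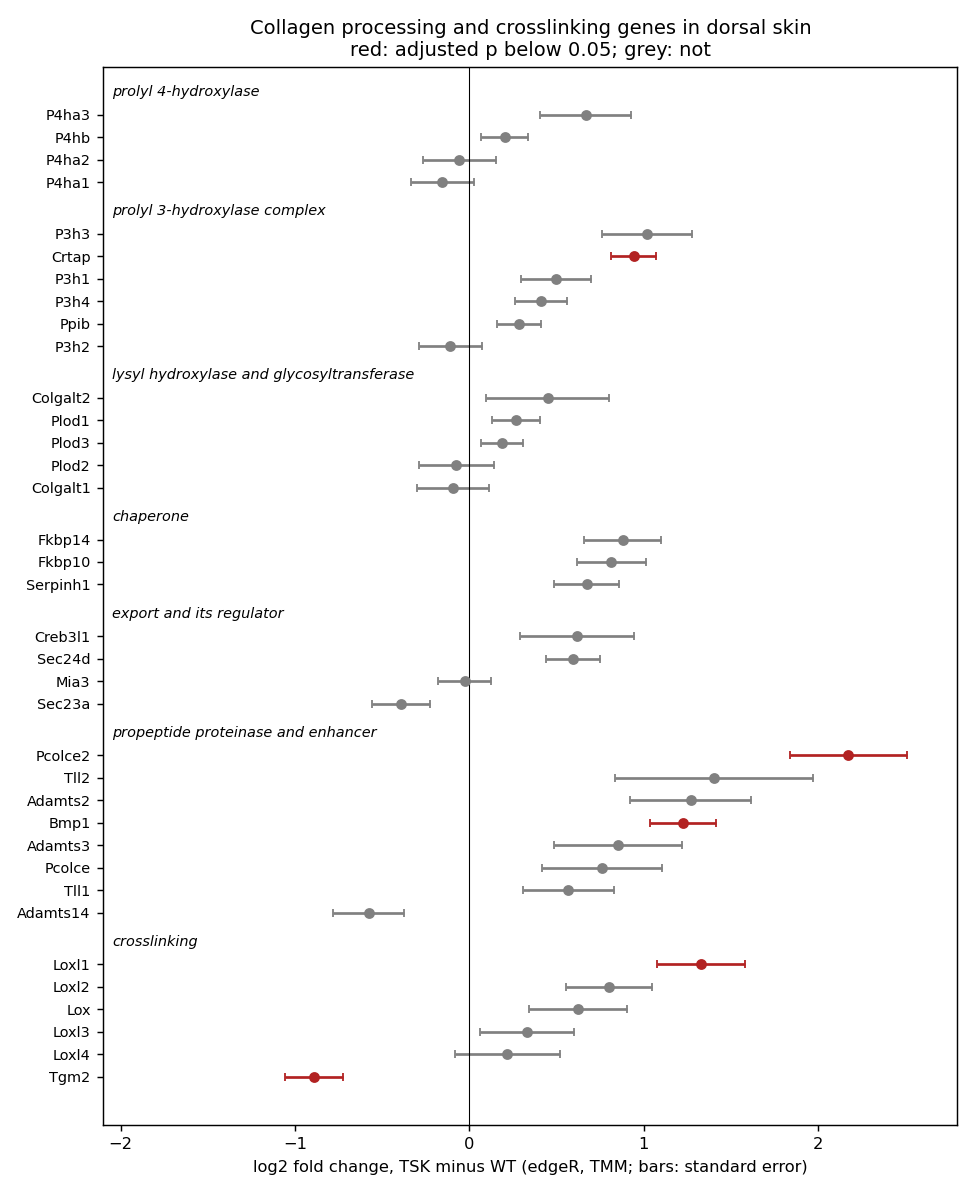
Log2 fold change (x axis, TSK minus WT, edgeR with TMM) of the 36 genes, grouped by role; bars are standard errors, and red marks an adjusted p below 0.05. Pcolce2 (2.17), Loxl1 (1.33), Bmp1 (1.23) and Crtap (0.94) are red on the right, and Tgm2 (-0.89) is the only red point on the left.

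The choice of tool and scaling set how many genes of the set were called. DESeq2, the tool used by the study, called 11 higher (P3h3, Loxl1, Loxl2, Serpinh1, Bmp1, Pcolce2, Crtap, Fkbp10, Fkbp14, Sec24d and Adamts2), where it called 5.13% of all genes higher, and Tgm2 lower, where it called 1.85% lower. With the stricter thresholds of the study (adjusted p below 0.01, more than 2.5-fold), edgeR called 0 of the 36 (0.29% of all genes), with the 16 and 3 given above for the unadjusted p, while DESeq2 called Loxl1 and Pcolce2 (1.4% of all genes called higher). Scaled by library size only, 13 were called higher, where 8.44% of all genes were. That scaling raised the median of all genes by about as much as it raised that of the set, to 0.25 and 0.83.

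Among the propeptide proteinases and their enhancers, Pcolce2 and Bmp1 were called higher. Pcolce2 encodes a protein that enhances the removal of the C-propeptide of procollagen. In WT 1, 2 and 3 it was read at 6.43, 8.62 and 5.44 CPM, and in TSK 1, 2 and 3 at 21.9, 36.9 and 55.8 CPM. The lowest TSK value was above the highest WT value by a wide gap, with TSK 3 highest. This gave a log2 fold change of 2.17 (SE 0.34; adjusted p = 0.0171 in edgeR). Pcolce, the more abundant enhancer, was read at 34.6, 52.3 and 49.9 CPM in WT and 62.2, 73.1 and 154 CPM in TSK, so that the groups did not overlap in CPM but TSK 3 stood far above the rest. Its log2 fold change of 0.76 (SE 0.35, adjusted p = 0.267) did not pass, and was 0.28 without TSK 3.

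Bmp1, the main C-proteinase of procollagen, which also activates lysyl oxidase, was read at 49.2, 48.1 and 56.3 CPM in WT and 116, 136 and 187 CPM in TSK. The WT values lay close together, and every TSK value was far above them. Its log2 fold change was 1.23 (SE 0.19, adjusted p = 0.0171). Tll1 and Tll2, which encode the related tolloid-like proteinases, were much lower. Tll1 averaged 5.28 ± 0.258 CPM in WT and 9.63 ± 3.46 in TSK (SD, n = 3), and Tll2 0.635 ± 0.495 and 2.11 ± 0.493. Neither passed in edgeR or DESeq2. The log2 fold change of Tll1 was 0.57 (adjusted p = 0.267), or 0.27 without TSK 3, and that of Tll2 1.40 (adjusted p = 0.218), or 0.89 without WT 1 (limma-trend on log2 of CPM plus 1 called Tll2, adjusted p = 0.0376).

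Adamts2, the main N-proteinase of procollagen I, was read at 30.8, 52.0 and 52.5 CPM in WT and 87.2, 117 and 203 CPM in TSK. The groups did not overlap, but the TSK values were widely spread, and its log2 fold change of 1.27 (SE 0.35) had an adjusted p of 0.0863 in edgeR and 0.00333 in DESeq2. Adamts3, an N-proteinase better known for cleaving a growth factor of lymph vessels, was low, at 1.17 ± 0.223 CPM in WT and 2.59 ± 1.17 CPM in TSK (log2 fold change 0.85, adjusted p = 0.242, or 0.45 without TSK 3). Adamts14 had the other sign. It was read at 44.6, 24.0 and 25.6 CPM in WT and 28.1, 20.2 and 26.6 CPM in TSK, which overlap in CPM, with WT 1 high. After TMM scaling the groups no longer overlapped, and the log2 fold change was -0.58 (SE 0.20, adjusted p = 0.162), or -0.33 without WT 1.

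**Figure D2:**
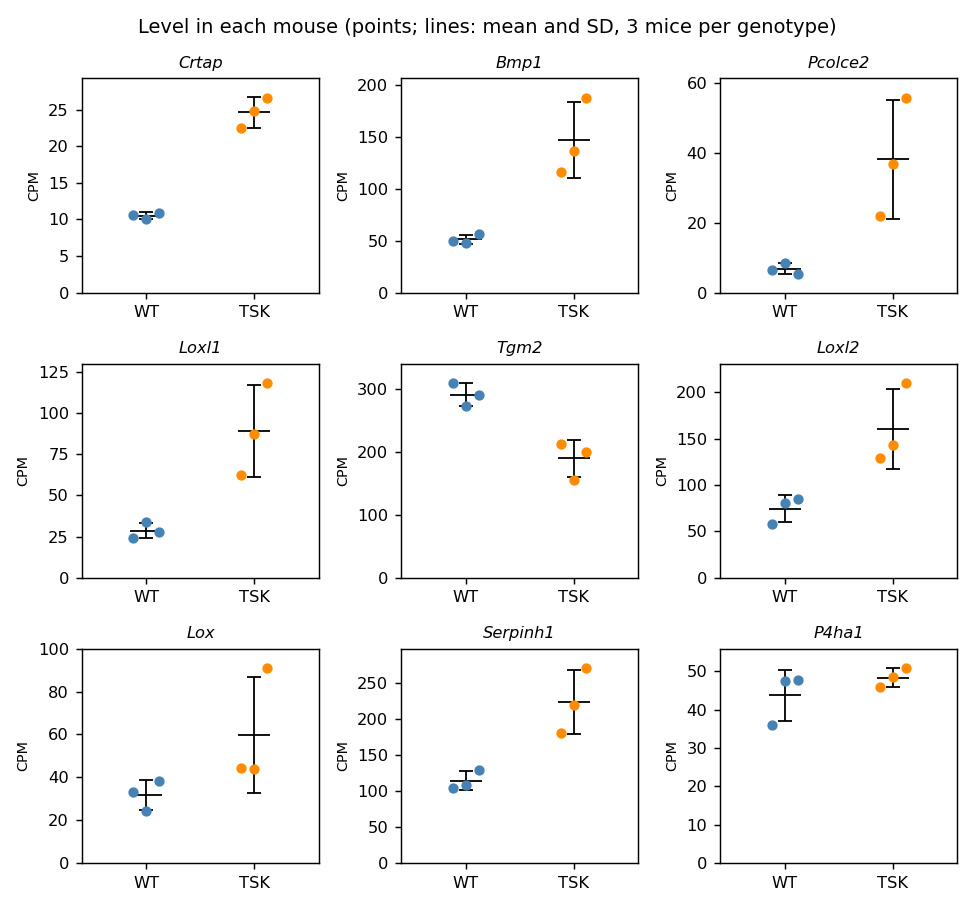
CPM (y axis, from 0) of 9 genes in each mouse, with the mean and SD of 3 mice per genotype. Crtap, Bmp1, Pcolce2, Loxl1 and Loxl2 are higher in every TSK mouse, Tgm2 is lower in every TSK mouse, and for Lox the TSK 3 mouse (91.0 CPM) lies well above the other TSK mice.

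The lysyl oxidases oxidize lysine in collagen and elastin as the starting step of crosslinking. Loxl1, which is known for its role in elastic fibres, was read at 24.4, 33.9 and 27.8 CPM in WT and 62.4, 87.2 and 118 CPM in TSK. All TSK values were above all WT values. The log2 fold change was 1.33 (SE 0.25, adjusted p = 0.0304). Loxl2, which crosslinks collagen IV among others, was read at 58.0, 80.9 and 84.6 CPM in WT and 129, 143 and 210 CPM in TSK, again with no overlap. Its log2 fold change was 0.80 (SE 0.25), with an adjusted p of 0.118 in edgeR and 0.0249 in DESeq2. A stretch of 2348 bases of Loxl2 is identical in Gm21451, a gene model nearby on chromosome 14 that was given 1.63 to 152 estimated counts per library against 1019 to 3960 for Loxl2, so the level of Loxl2 is uncertain. How reads from this stretch were divided between the 2 genes was not tested.

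Lox, the founding enzyme of the family, was read at 32.9, 24.4 and 38.3 CPM in WT and 44.3, 43.8 and 91.0 CPM in TSK. The groups did not overlap in CPM, but TSK 1 and TSK 2 were close to WT 3. The log2 fold change was 0.62 (SE 0.28, adjusted p = 0.264), or 0.21 without TSK 3. Loxl3 was read at 6.78, 5.75 and 10.2 CPM in WT and 8.96, 10.4 and 15.6 CPM in TSK, with a log2 fold change of 0.33 (SE 0.27, adjusted p = 0.548) that ranged from 0.08 without TSK 3 to 0.64 without WT 3, and 535 of its 4603 exon bases are shared with Htra2 on the opposite strand. Loxl4 was read at 3.25, 3.09 and 4.45 CPM in WT and 4.07, 3.80 and 7.47 CPM in TSK, with a log2 fold change of 0.22 (SE 0.30, adjusted p = 0.742). For both of these the groups overlapped.

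Tgm2 encodes tissue transglutaminase, which joins matrix proteins through glutamine and lysine. It was read at 309, 272 and 290 CPM in WT and 212, 156 and 199 CPM in TSK. All TSK values were below all WT values, with TSK 2 lowest. The log2 fold change was -0.89 (SE 0.17, adjusted p = 0.0291). Exons of Tgm2 share 633 bases with Gm20412 and 370 with Rprd1b on the opposite strand, out of 4608, and whether the authors' counting used strand is not given in the sources used here.

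Among the genes for prolyl 3-hydroxylation, Crtap, the partner protein of P3h1, was the only gene called in the whole-table edgeR test. DESeq2 called P3h3 as well. Crtap was read at 10.6, 10.0 and 10.9 CPM in WT and 22.4, 24.9 and 26.6 CPM in TSK, and the groups were far apart. The log2 fold change was 0.94 (SE 0.13, adjusted p = 0.0123). P3h1 itself, the enzyme of the complex, averaged 11.6 ± 2.32 CPM in WT and 20.1 ± 3.18 CPM in TSK (log2 fold change 0.50, adjusted p = 0.215, or 0.79 and 0.0362 with library size only). Ppib, the cyclophilin of the same complex, averaged 34.0 ± 7.35 and 49.7 ± 5.59 CPM (0.28, adjusted p = 0.264), although 825 of its 3305 exon bases are shared with Snx22 on the opposite strand. P3h3, which acts with P3h4 in a lysyl hydroxylase complex, was read at 6.92, 8.62 and 9.32 CPM in WT and 17.0, 16.2 and 28.8 CPM in TSK, without overlap, and its log2 fold change of 1.02 had an adjusted p of 0.0712 in edgeR and 0.00657 in DESeq2. P3h4 averaged 6.18 ± 0.824 and 9.95 ± 1.19 CPM (0.41, adjusted p = 0.173). P3h2, known for acting on collagen of basement membranes, averaged 24.3 ± 8.61 and 26.7 ± 2.31 CPM (-0.11, adjusted p = 0.787), and 1055 of its 3721 exon bases are shared with the antisense gene Gm4524.

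Of the 4 prolyl 4-hydroxylase genes none passed in edgeR with TMM or in DESeq2, and P4ha3 alone had an unadjusted edgeR p below 0.05 (0.0322). P4ha1, the main catalytic subunit, was read at 36, 47.4 and 47.7 CPM in WT and 45.8, 48.4 and 50.8 CPM in TSK, which overlap, and its log2 fold change was -0.15 (SE 0.18, adjusted p = 0.691), from -0.32 without WT 1 to -0.0091 without WT 2. P4ha2 averaged 30.3 ± 4.56 CPM in WT and 35.9 ± 7.94 CPM in TSK (-0.06, adjusted p = 0.916), and P4ha3, the scarcest of the catalytic subunits, 2.19 ± 0.634 and 4.24 ± 0.614 CPM (0.67, adjusted p = 0.202). P4hb, the shared second subunit that is also protein disulfide isomerase, was read at 156, 141 and 167 CPM in WT and 209, 218 and 222 CPM in TSK. These values do not overlap, but the log2 fold change after TMM scaling was 0.20 (SE 0.14, adjusted p = 0.452). It was called by limma-trend on log2 of CPM plus 1 and plus 0.1 (adjusted p = 0.0467 and 0.0484), which use no TMM. In edgeR with library size only, also without TMM, it was not called (adjusted p = 0.0622).

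Of the 5 lysyl hydroxylase and glycosyltransferase genes none passed in edgeR with TMM or in DESeq2, and 0 had an unadjusted edgeR p below 0.05. Plod1, which hydroxylates lysine in the helix, averaged 41.8 ± 2.59 CPM in WT and 61.4 ± 8.51 CPM in TSK (0.27, adjusted p = 0.327). With library size only, its log2 fold change was 0.55 and it was called by edgeR (adjusted p = 0.0471). Plod2, which acts on the telopeptides, averaged 9.95 ± 1.76 and 11.6 ± 2.04 CPM (-0.08, adjusted p = 0.887). Plod3, which also transfers sugars, averaged 31.5 ± 2.42 and 43.6 ± 5.47 CPM (0.19, adjusted p = 0.433), but 529 of its 4519 exon bases are shared with Znhit1 on the opposite strand. Colgalt1 and Colgalt2 add galactose to hydroxylysine. Colgalt1 averaged 45.5 ± 3.40 and 52.0 ± 16.2 CPM (-0.09, adjusted p = 0.848), with 495 of its 4326 exon bases shared with Unc13a on the opposite strand, and Colgalt2 2.56 ± 0.960 and 4.35 ± 0.932 CPM (0.45, adjusted p = 0.531, from 0.16 without WT 1 to 0.84 without WT 2).

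Each of the 3 chaperones was higher in every TSK library than in any WT library, in CPM as deposited (where 29.1% of all genes were) and after TMM scaling (14.1%). None passed in the whole-table edgeR test. Serpinh1, or HSP47, which binds folded procollagen, was read at 104, 109 and 129 CPM in WT and 181, 219 and 270 CPM in TSK (0.67, SE 0.19, adjusted p = 0.0906). Fkbp10, a prolyl isomerase, was read at 16.1, 10.9 and 14.3 CPM in WT and 23.0, 25.3 and 39.5 CPM in TSK (0.81, SE 0.20, adjusted p = 0.0666). Fkbp14, a related isomerase, was read at 4.50, 5.54 and 6.76 CPM in WT and 10.5, 14.3 and 13.3 CPM in TSK (0.88, SE 0.22, adjusted p = 0.0698). In DESeq2 their adjusted p-values were 0.0118, 0.00846 and 0.0138, and in edgeR with library size only 0.0127, 0.0220 and 0.0120. Fkbp10 and Fkbp14 were also called in edgeR with no low-count filter (adjusted p = 0.0199 and 0.0273) and with the replicate block (0.0439 and 0.0396). Serpinh1 was not called in these fits (0.0519 and 0.0537). Fkbp10 lies 860 bases from P3h4 on chromosome 11, and the 2 genes point away from each other.

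None of the 4 export genes was called in edgeR with TMM. Sec24d, a cargo-binding part of the COPII coat, was read at 21.8, 15.3 and 16.6 CPM in WT and 27.2, 30.1 and 40.4 CPM in TSK, without overlap (0.59, SE 0.16, adjusted p = 0.0777 in edgeR and 0.0257 in DESeq2). Sec23a, its partner in the inner coat, was read at 57.1, 68.5 and 69.8 CPM in WT and 60.2, 65.8 and 56.9 CPM in TSK, which overlap (-0.39, SE 0.17, adjusted p = 0.241). Without WT 1 it was called lower (-0.52, adjusted p = 0.0469), but the log2 fold change was -0.096 with library size only and -0.092 and -0.093 with limma-trend on log2 of CPM plus 1 and plus 0.1. Mia3, or TANGO1, which loads procollagen at exit sites, averaged 104 ± 8.01 CPM in WT and 125 ± 6.41 CPM in TSK, and its log2 fold change after TMM scaling was -0.03 (adjusted p = 0.946), or 0.27 with library size only. Creb3l1, a transcription factor that is cleaved to become active and acts on collagen genes, averaged 13.1 ± 2.58 CPM in WT and 24.5 ± 13.4 CPM in TSK. TSK 2 was level with WT 3, TSK 3 was far above at 39.9 CPM, and the log2 fold change was 0.62 (SE 0.33, adjusted p = 0.341), or 0.10 without TSK 3.

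Levels were compared between genes per kilobase of exon. In WT skin the highest were Tgm2 (63.0 ± 3.99 CPM per kilobase), P4hb (54.1 ± 4.61) and Serpinh1 (46.7 ± 5.46). In TSK skin the order was Serpinh1 (91.3 ± 18.4), P4hb (75.6 ± 2.35) and Tgm2 (41.1 ± 6.44). In TSK the SDs of Serpinh1 and P4hb overlap, whereas in WT those of P4hb and Serpinh1 overlap and that of Tgm2 lies above both. Mia3 followed in WT (23.5 ± 1.81), and Loxl2 (29.7 ± 8.00), Mia3 (28.2 ± 1.45) and Loxl1 (27.1 ± 8.48) followed in TSK within their SDs. The length used was that of all exons of a gene merged. For Mia3 it was 4431 bases and for Pcolce 3823, against 2961 and 2573 in their longest transcripts. How these genes rank with the longest transcript as length was not examined. Tll2 and Adamts3 were lowest in both groups.

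**Figure D3:**
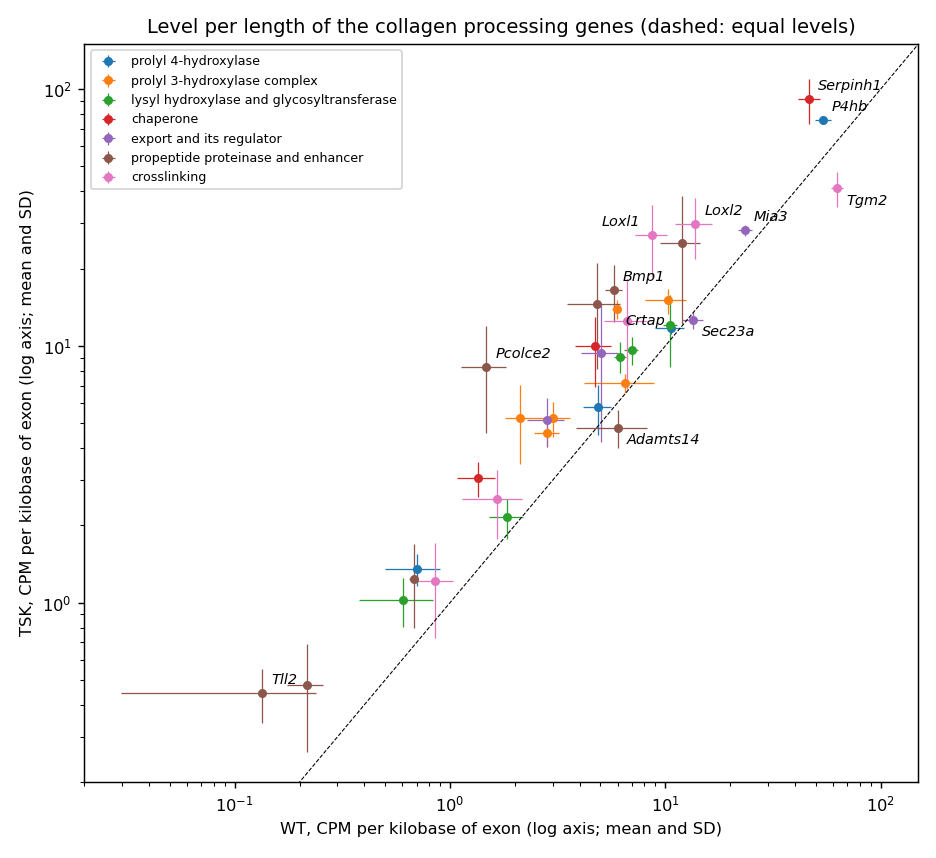
CPM per kilobase of exon in WT (x axis) and TSK (y axis), both log axes, with mean and SD of 3 mice per genotype; colours mark roles and the dashed line marks equal levels. Serpinh1 (91.3 in TSK) and P4hb lie at the top right, Tgm2 lies below the line, and Pcolce2 is among the points farthest above it.

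The makeup of enzyme families was examined as the share of each isozyme in the summed counts per kilobase of its family, a quantity that does not move with library scaling. Shares of a family sum to 100%, so its members move against each other and are not independent, and no share over all genes can be set beside a count of them. Of 23 shares, 12 did not overlap between the groups, each at p = 0.1, the smallest that 3 mice against 3 can give (exact permutation test, two-sided), with an adjusted p of 0.192 over the 23. None could therefore pass 0.05. Among the N-proteinases the share of Adamts2 was 27.3%, 53.6% and 52.0% in WT and 61.7%, 74.9% and 78.8% in TSK. That of Adamts14 was 71.1%, 44.5% and 45.5% in WT and 35.7%, 23.2% and 18.6% in TSK, so that Adamts2 was the major N-proteinase transcript in every TSK library and Adamts14 in WT 1. Of the C-proteinase enhancers, Pcolce held 86.7%, 88.0% and 91.7% in WT and 77.5%, 70.6% and 76.9% in TSK, and Pcolce2 held the rest.

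Among the lysyl oxidases the share of Loxl1 was 27.1%, 31.8% and 23.8% in WT and 34.4%, 40.5% and 36.2% in TSK. The shares of Loxl3 (5.18% ± 1.23 and 3.47% ± 0.0645) and Loxl4 (2.69% ± 0.380 and 1.64% ± 0.229) were lower in every TSK library, while those of Lox and Loxl2 overlapped. Within their families Bmp1 held 87.6% ± 1.43 in WT and 90.8% ± 0.722 in TSK, P3h3 18.5% ± 4.77 and 29.2% ± 5.49, and P4ha3 4.38% ± 1.29 and 7.21% ± 1.25, each without overlap. Plod1 held 41.2% ± 0.479 in WT and 43.4% ± 1.18 in TSK. The shares of Plod2, Plod3, Colgalt1 and Fkbp10 overlapped.

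**Figure D4:**
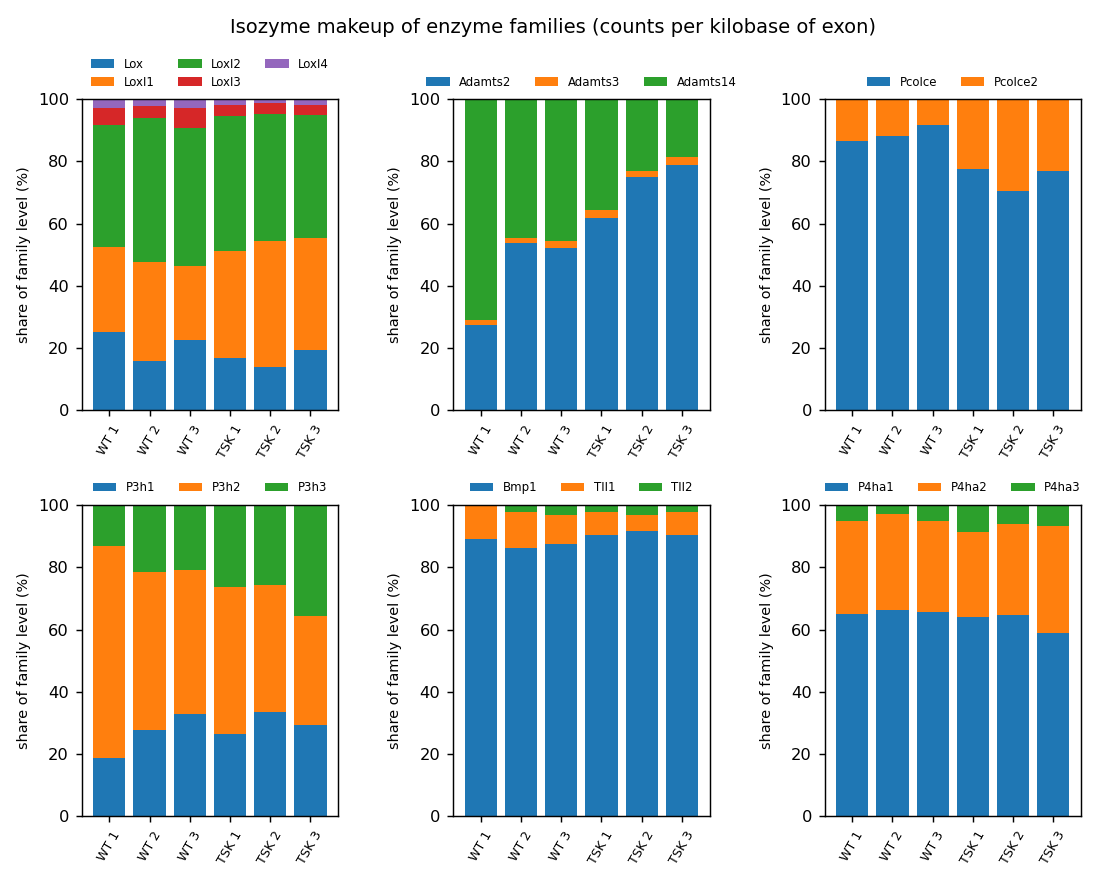
Share of each isozyme in the level of its family (y axis, percent of counts per kilobase of exon) in each of the 6 mice for 6 families. Adamts2 takes a larger share in every TSK mouse (61.7% to 78.8%) than in any WT mouse, and so do Loxl1 and P3h3, while Pcolce takes a smaller one.

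The main substrates of these enzymes are the chains of collagen I and III. Summed over Col1a1, Col1a2 and Col3a1, the level was 6184, 8282 and 9437 CPM in WT and 20544, 19963 and 46808 CPM in TSK, a ratio of means of 3.65. Summed over the 36 genes it was 1381, 1367 and 1496 CPM in WT and 1791, 1969 and 2568 CPM in TSK, a ratio of 1.49. TSK 3 was highest in both sums. The sum of the set includes Tgm2, its most abundant gene in WT, which fell. The ratios of means of single genes ranged from 0.652 (Tgm2) to 5.59 (Pcolce2), and the sums were not tested against each other. None of the 3 chains passed in edgeR, with log2 fold changes of 1.84 (Col1a1, adjusted p = 0.0654), 1.56 (Col1a2, 0.0821) and 1.24 (Col3a1, 0.119), while DESeq2 called all 3 higher (adjusted p = 7.3e-06, 0.000197 and 0.00135). They were also called with library size only, in both limma-trend fits and with no low-count filter. Divided by the collagen sum, a ratio chosen after the values were seen, 27 of the 36 genes (75.0%) were lower in every TSK library than in any WT library, where 82.0% of all genes were, so the count is no higher than the background. Pcolce2 alone of the set was above every WT library in all TSK libraries by this ratio, where 0.26% of all genes were, but the margin was small: per 1000 CPM of the collagen sum it had 1.04, 1.04 and 0.577 CPM in WT and 1.07, 1.85 and 1.19 CPM in TSK.

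Other genes of the pathway were taken from 6 lists with 54 genes, of which 53 were tested. At an adjusted p below 0.05, 6 were higher and 1 lower, where 2.71% and 0.681% of all genes tested were (5.13% and 1.85% in DESeq2, and 12.1% and 7.9% at the unadjusted p). Among scaffolds and activators of the lysyl oxidases, 3 of 6 were higher: Fn1, fibronectin (log2 fold change 1.76, adjusted p = 0.0148), Fbln5 (1.44, 0.0234) and Efemp2 (0.92, 0.0304), the fibulins that bring lysyl oxidases to elastic fibres. Of 5 genes for collagen turnover, Ctsk, cathepsin K (1.57, 0.036), and Mmp14, a collagenase at the cell membrane (1.26, 0.0369), were higher. Mbtps1, the protease that cleaves Creb3l1 and its relatives, was the only one of 5 called in its list (0.51, adjusted p = 0.0497), a call that was lost with upper quartile scaling, limma-voom, no low-count filter or a replicate block and in 5 of 6 fits without a library (called in 8 of 17 alternatives, highest adjusted p 0.211). Without WT 3 none of the 7 called pathway genes passed, and each but Fn1 was lost without at least 3 of the 6 libraries in turn. Of 10 fibrillar collagen genes tested, Col24a1 was lower (-1.22, adjusted p = 0.034) and 0 were higher in edgeR, with 6 higher at an unadjusted p below 0.05 and 5 called higher by DESeq2. None of 14 general folding genes (median 0.25) and none of 13 COPII and export genes (median -0.11) were called in edgeR, while DESeq2 called 2 higher in the former and 2 lower in the latter. At an unadjusted edgeR p below 0.05, 7 folding genes were higher, and 1 export gene was higher and 3 lower. Fbn1, the mutated gene, had a log2 fold change of 2.54 (SE 0.22, adjusted p = 0.00327). Reads from both copies of its duplicated exons can count towards Fbn1, and the part of this in the fold change was not tested.

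Markers of some cell types differed between the groups, read against 2.71% of all genes called higher and 0.681% lower in edgeR, 5.13% and 1.85% in DESeq2, and 12.1% and 7.9% at an unadjusted edgeR p below 0.05. The summed level of 8 fibroblast markers was 292 to 364 CPM in WT and 542 to 938 CPM in TSK, a ratio of means of 2.18. Of the 8, edgeR called 3 higher (Dpt, Thy1 and Prrx1), DESeq2 called 6, and 6 were higher unadjusted. The 6 adipocyte markers summed to 95.4 to 130 CPM in WT and 298 to 1878 CPM in TSK, with TSK 2 highest, 2 called higher by edgeR, 5 by DESeq2 and 6 unadjusted. The 9 markers of adult skeletal muscle, which lies under the skin, summed to 145068 to 209483 CPM in WT and 127130 to 142589 CPM in TSK, with 0 called by edgeR (unadjusted, 1 was higher and 4 were lower, and DESeq2 called 1 higher and 6 lower). Macrophage (119.8 to 179 and 213 to 599 CPM, 0 of 5 called by edgeR, 3 higher unadjusted and 2 by DESeq2), endothelial (124 to 146 and 217 to 363 CPM, 1 of 5 called higher by edgeR, 5 unadjusted and 2 by DESeq2) and smooth muscle and pericyte markers (215 to 278 and 367 to 524 CPM, 1 of 5 called higher by edgeR, 3 unadjusted and 2 by DESeq2) were also higher in sum. Keratinocyte markers overlapped (3738 to 7170 and 4591 to 7660 CPM, 0 of 6 called by edgeR or DESeq2 and 1 unadjusted), and cartilage and bone markers were near 0, at 0.822 to 1.75 CPM over 7 genes. The part of these differences in the levels of the collagen processing genes was not tested.

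Library totals ranged from 17561271 to 19219622 rounded counts, and the TMM factors from 0.823 to 1.03 in WT and from 1.06 to 1.13 in TSK. The lowest median count of any of the 36 genes over the libraries was 24, for Tll2.

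The calls rested on few mice. Without WT 3 edgeR called 0 genes of the set (an unadjusted p below 0.05 was reached by 17 upward and 2 downward). The whole table lost calls as well in that fit, with 0.218% of all genes called higher and 0.0726% lower, against 9.3% and 4.66% at the unadjusted p. The genes called with all libraries had adjusted p-values of 0.0566 for Crtap, 0.0656 for Bmp1, 0.0833 for Pcolce2, 0.124 for Loxl1 and 0.131 for Tgm2, while the log2 fold changes stayed at 1.00, 1.33, 2.05, 1.33 and -0.86 for these genes. Loxl1 was also lost without TSK 2 (adjusted p = 0.0609) or TSK 3 (0.072), and Tgm2 without WT 2 (0.0891), TSK 2 (0.0751) or TSK 3 (0.0735). Crtap, Bmp1 and Pcolce2 were called when any other library was left out. Without TSK 3, which had the highest collagen sum, the median log2 fold change of the 36 genes was 0.27, and 1.58% of all genes were called higher and 0.32% lower.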

How the data were processed

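Dorsal skin RNA of 3 TSK and 3 WT mice was analysed, grouped by the genotype in the labels. Per the labels and the methods of the study, ribosomal RNA was depleted, stranded libraries were sequenced as single-end reads of 50 bases, and the reads were aligned with STAR to mm10 and quantified in Partek Flow 11.0 with Ensembl annotation. The authors deposited a table of estimated counts per gene, named as raw although, per library, 54.6% to 56.7% of values above 0 were not whole, and a table of CPM, scaled by library total. The tests had been planned for counts, so the estimated counts were rounded first.

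edgeR 4.0.16 (R 4.3.3) was run with TMM and filterByExpr on all genes, two-sided. A positive log2 fold change means higher in TSK, and its standard error was derived from the F statistic. CPM in the text are the deposited values, without TMM, so that their ratios exceed the fitted fold changes. DESeq2 1.42.0, limma 3.58.1 (voom, and trend on log2 of deposited CPM plus a pseudocount of 1 or 0.1), other scalings and filters, a block on replicate number and fits without each library were alternatives. Exon lengths and overlaps come from GENCODE M21, which gave all 36 genes the deposited location, and matches between transcripts from BLAST 2.17.0 (at least 95% identity over 50 bases). Coordinates are 1-based in mm10. The members, lists and tests were chosen with earlier results of these data known. All 36 genes are named. Called genes and lysyl oxidases have a value for every library, and from the other pathway lists up to 3 called genes per list were named by lowest p. Library totals were 17561271 to 19219622 counts. Libraries of a group were checked for repeats: chi-square per degree of freedom was at least 8.85. On simulated data, edgeR recovered 41.8% of 110 genes with a log2 change of 1 and 92% of 87 genes with a change of 2, with 12 false calls among 19615 genes. DESeq2 recovered 58.2% of 110 and 91.1% of 90, with 36 false calls among 19971 genes. Single-cell libraries were not analysed here.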

Additional observations from a re-analysis of the deposited data

How the results depend on the processing

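The number of genes of the set called (5) became 14 with library size only, 12 with DESeq2, 16 and 15 with limma-trend on log2 of CPM plus 1 and plus 0.1, 10 with no low-count filter, and 9 with the replicate block. In these fits 8.9%, 6.98%, 9.37%, 9.31%, 3.98% and 3.98% of all genes tested were called, against 3.39% in the reported fit. It was 0 to 6 when a library was left out (0 without WT 3, 3 without TSK 2 or TSK 3), where 0.29% to 6.13% of all genes were called. At the thresholds of the study the count (0) became 3, 2, 3, 3 and 2 in the same order up to no filter, and 2 at an adjusted p below 0.05 with a fold change above 2.5, where 1.53%, 1.71%, 1.42%, 1.65%, 1.02% and 1.56% of all genes passed, against 0.29%. The 7 other pathway genes became 26, 19, 27, 27, 15 and, with the block, 11, and 0 to 8 without a library (0 without WT 3, 1 without TSK 3, 2 without WT 2, 3 without TSK 2). The median log2 fold change (0.53) was 0.83 with library size only, 0.79 with limma-trend on log2 of CPM plus 0.1, and 0.27 to 0.61 without a library. The other scalings, limma-voom, the CPM filter and removal of muscle, mitochondrial and ribosomal RNA genes left these counts and the median within 1.5 times or 1 SD. The causes were not tested.

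Genes near 0 changed sign. With library size only, limma-trend plus 1 and limma-trend plus 0.1, the log2 fold change was 0.15, 0.15 and 0.16 for P4ha1, 0.25, 0.23 and 0.23 for P4ha2, 0.14, 0.18 and 0.19 for P3h2, 0.22, 0.20 and 0.22 for Plod2, 0.19, 0.14 and 0.14 for Colgalt1, and 0.27, 0.26 and 0.27 for Mia3. Leaving out a library gave -0.23 to 0.10 for P4ha2, -0.25 to 0.078 for Plod2, -0.21 to 0.13 for P3h2, -0.24 to 0.13 for Colgalt1, -0.14 to 0.077 for Mia3 and -0.14 to 0.43 for Loxl4.

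The TSK minus WT difference in share, in percentage points, was -0.00448 for P4ha2 with the longest transcript as length. Without a library it was -1.72 to 1.71 for P4ha2, -0.577 to 6.36 for P3h1, -0.929 to 1.15 for Plod3, -0.287 to 1.12 for Tll2 and -3.79 to 1.71 for Fkbp10.

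Same-numbered mice of both groups deviated together at correlations of 0.0112, 0.167 and -0.0938. Differently numbered mice were not compared, so whether the numbers pair the mice was not tested. With the replicate block 8 genes of the set were higher and 1 lower, P3h3, Fkbp10, Fkbp14 and Adamts2 being added. With 3 mice per group, p-values from exact tests of shares cannot pass 0.05, and groups of this size were not searched for outlying libraries.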
